A study of Mus with 2 samples.

Results

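The genes described here are 44 genes of DNA replication and S phase, listed by symbol for their part in origin licensing, the replication fork or the supply of deoxynucleotides. They are 44 of the 20144 mouse genes to which a probe of the array could be matched through a RefSeq transcript accession. Of the 44, 43 were measured, among 13533 measured genes in all. The exception was Ccne2, which encodes cyclin E2, whose single probe stayed at background with DMSO (signal 3.81) and with GW4064 (3.57).

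The macrophages came from the bone marrow of 10-week-old male C57BL6/J mice and are called BMDMs. All of them were grown for 7 d with M-CSF at 10 ng/mL, the growth factor of this lineage, and then kept for 24 h with IL-4 at 10 ng/mL, the M2 condition. The control culture received DMSO, the solvent, and the other received 10 µM GW4064, a synthetic agonist of the nuclear receptor FXR, with every other step shared. RNA of each condition was labelled with Cy3 and read on 1 Agilent 44K array, both on 1 slide and in 1 scan, so that there is no replicate error and no test for any gene. How many mice or cultures stood behind each RNA is not given in the sources used here. The title, source and treatment of the second sample name GW4064, while its free-text description repeats the wording of the DMSO sample.

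DNA replication starts at origins that are licensed in G1, when ORC, Cdc6 and Cdt1 load the ring of Mcm2 to Mcm7 onto DNA. In S phase, Cdc45 and the GINS complex join this ring to form the active helicase (CMG), and the primase, polymerases, sliding clamp and clamp loader follow it at the fork. Deoxynucleotides are supplied by ribonucleotide reductase and thymidylate synthase, and most of these genes are transcribed by E2F factors once cyclin-dependent kinases have inactivated Rb. BMDMs divide in response to M-CSF, so that replication genes are normally active in such cultures.

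Most replication genes were slightly higher with GW4064 when each array was scaled to its 75th percentile, but not when the arrays were centred on spike-in control probes, and none reached a 2-fold difference. In the first scaling 39 of the 43 measured genes were higher and 4 lower, and in the second 19 were higher and 24 lower. Quantile, median and loess scaling, a normexp background correction and the authors' log2 table each gave between 36 and 39 higher. Scaled to the 75th percentile, 51.6% of all measured genes were higher, against 90.7% of the replication genes. The median log2 difference of the replication genes, GW4064 minus DMSO, was 0.15 (1.11-fold), with a range from -0.095 to 0.90. The median of all measured genes was 0.0069. The largest differences were those of Tyms, Lig1, Tk1 and Orc1, which act in thymidylate synthesis, ligation, thymidine salvage and origin recognition. The 4 lower genes were Mcm4, Pcna, Gins4 and Rfc1.

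**Figure D1:**
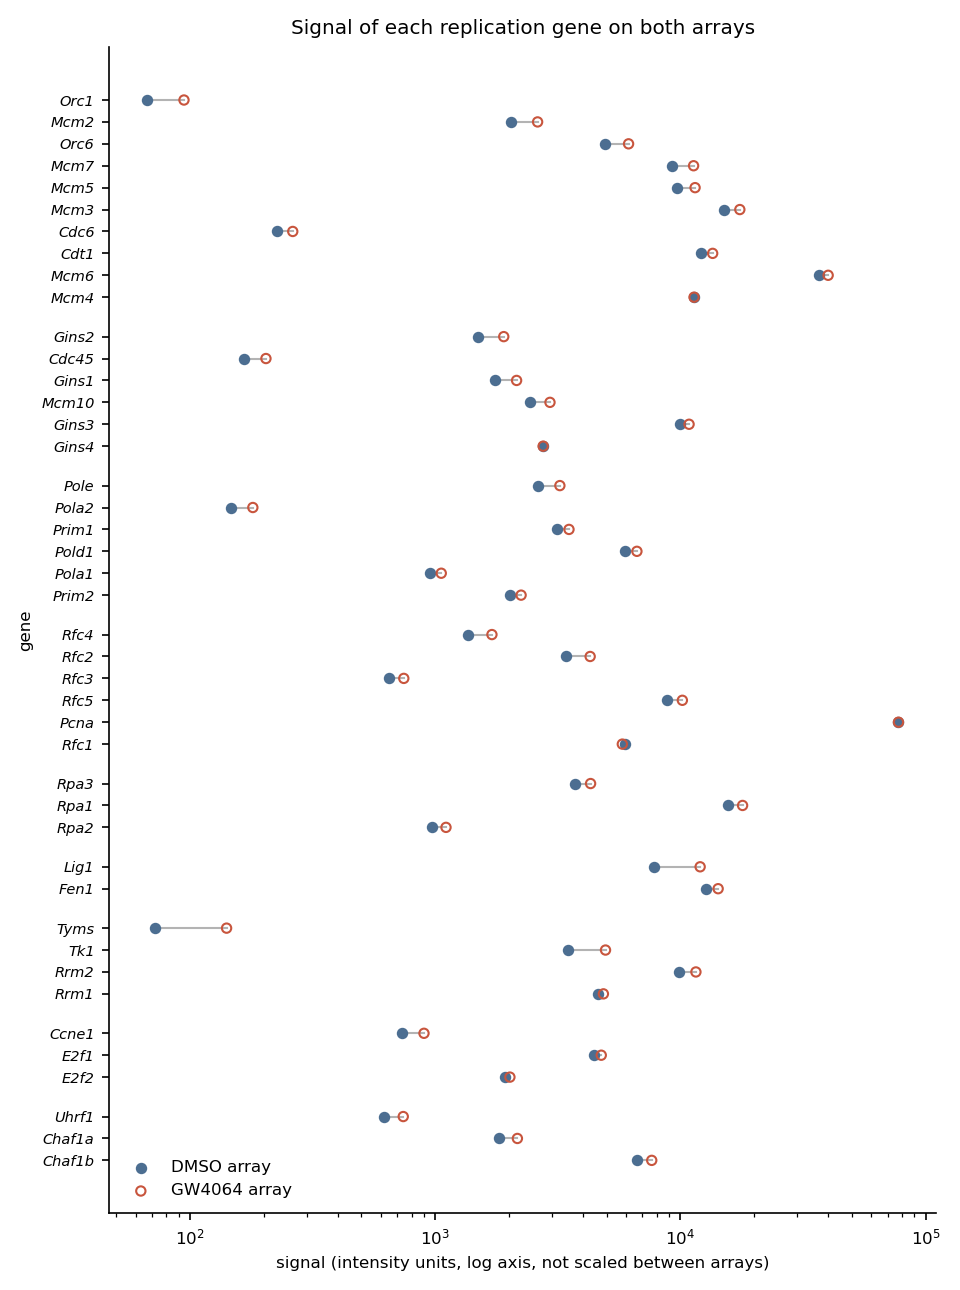
Signal of each measured replication gene with DMSO (filled points) and with GW4064 (open points), in intensity units on a log axis and not scaled between the arrays, as the geometric mean over the probes of a gene. The open point lies to the right for most genes, by the widest gap for Tyms (72.0 and 141), and the points of Mcm4, Pcna, Gins4 and Rfc1 lie on or next to each other. Brightness depends on the probe and is not compared between genes. The 75th percentile of the whole array was also higher with GW4064 (1265 against 1209).

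By size, 0 of the 43 genes were 2-fold or more higher, against 2.04% of all measured genes, and 0 were 2-fold or more lower, against 2.71%. At a threshold of 1.5-fold 1 gene, Tyms, was higher, against 4.39%, and 0 were lower, against 5.56%. At a log2 difference of 0.32 or more, the smallest threshold used, 4 genes were higher, against 9.84%, and 0 were lower, against 10.6%. At each threshold the share of replication genes was thus at or below that of all genes. Their 25th and 75th percentiles were 0.091 and 0.23, against -0.12 and 0.13 for all genes. Above the 75th percentile of all genes lay 26 of the 43 replication genes, 17 lay between their 25th and 75th, and 0 lay below the 25th. Without the 4 largest, the other 39 genes had a median log2 difference of 0.14, and 35 of them were higher (in the scaling to the 75th percentile).

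**Figure D2:**
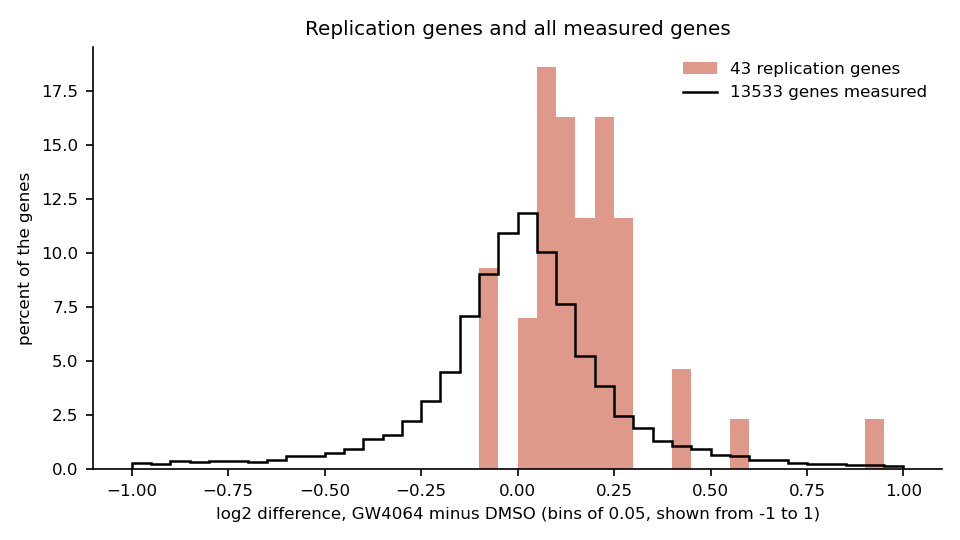
Distribution of log2 differences (GW4064 minus DMSO, with the 75th percentile of each array at 0) for the 43 measured replication genes (filled bars) and for all 13533 measured genes (line), in percent of each set per bin. The bars are shifted to the right of the line, with medians of 0.15 and 0.0069, and centring on the spike-in RNA moves both to the left by 0.17.

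The spread that the arrays themselves give was read from probes printed 10 times. Over the copies of such a probe, the log2 difference had a median SD of 0.16 for signals under 100, of 0.090 from 100 to 1000, of 0.072 from 1000 to 10000 and of 0.069 above. This copy SD measures printing and reading on the 2 arrays, with 1 RNA on each, and not the labelling or the spread between cultures. In the scaling to the 75th percentile, the difference was larger than the copy SD at its signal for 35 of the 43 replication genes. It was larger than 2 copy SD for 22. The same counts over all measured genes were not made, so neither count is a trait of the replication genes by itself. The 25th and 75th percentiles of all genes, -0.12 and 0.13, also lay beyond 1 copy SD for signals above 100. Differences beyond 1 copy SD are thus not particular to replication genes. The 8 genes within 1 copy SD were Mcm6, Gins3, E2f1, Rrm1, E2f2, Mcm4, Pcna and Gins4. With spike-in centring all 8 were negative by more than the copy SD, from -0.11 for Mcm6 to -0.24 for Gins4. Within it then came Pole, Ccne1, Cdc45, Gins1, Pola2, Mcm7, Mcm10, Uhrf1, Chaf1a and Mcm5, all still higher. Rrm2, Mcm3, Rpa1, Rpa2, Rpa3, Cdc6, Rfc3, Rfc5 and Chaf1b also came within it, all lower. Only Tyms, Lig1, Tk1, Orc1, Mcm2, Gins2, Rfc4, Rfc2 and Orc6 stayed higher by more than the copy SD. All replication probes were printed once, and none of the 44 genes was measured by more than 2 probes.

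**Figure D3:**
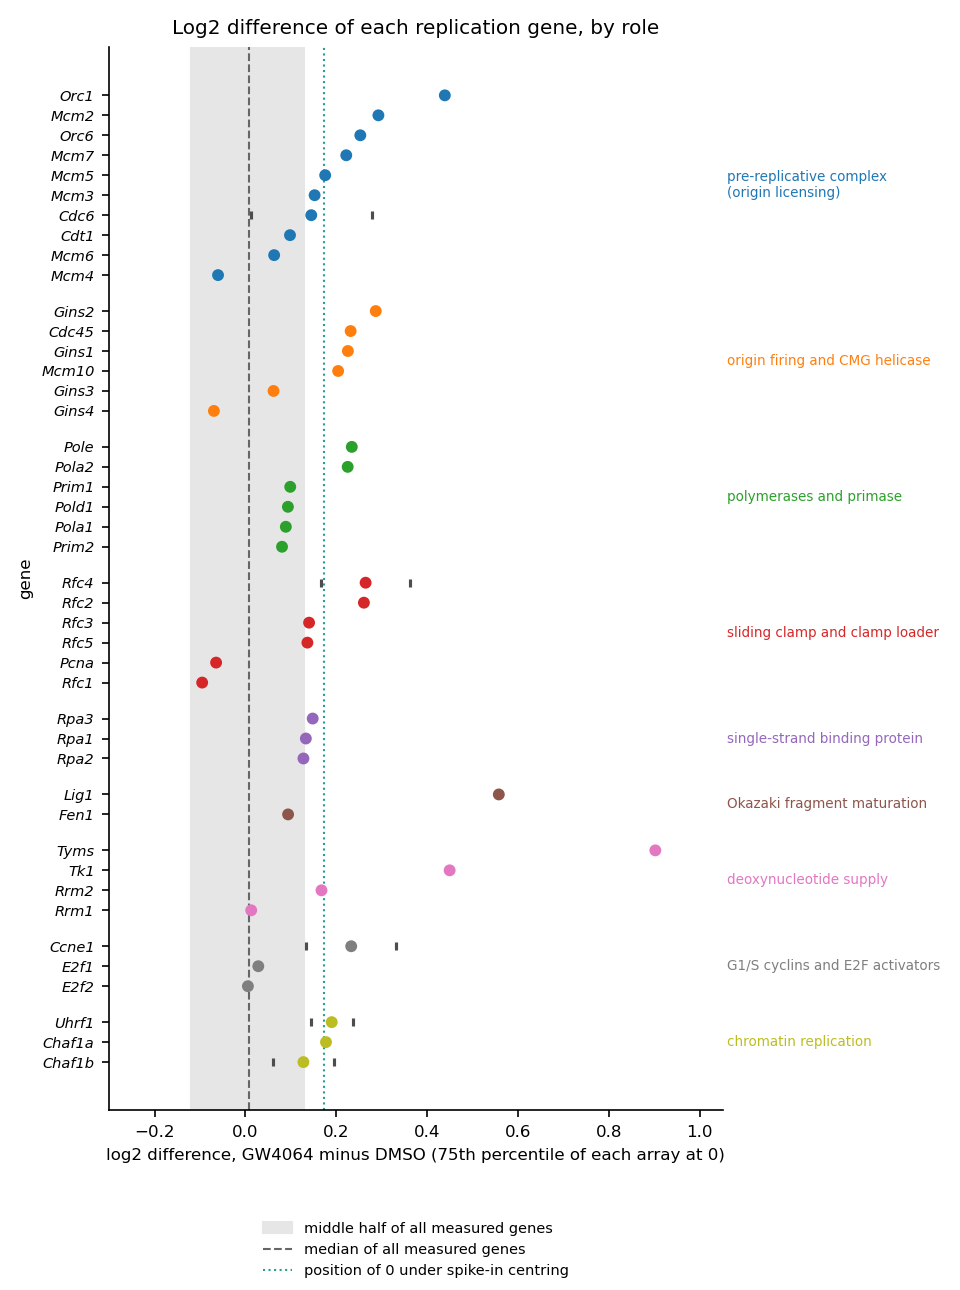
Log2 difference of each measured replication gene (GW4064 minus DMSO, with the 75th percentile of each array at 0), grouped by role, with short vertical marks for the single probes of genes read by 2 probes. The shaded band runs from the 25th to the 75th percentile of all measured genes (-0.12 to 0.13), the dashed line is their median and the dotted line marks the position of 0 under spike-in centring, which 19 genes exceeded.

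Among the licensing genes, 9 of 10 were higher with GW4064, with a median of 0.16, whereas with spike-in centring 5 were higher and the median was -0.010. Orc1, the largest subunit of the origin recognition complex, had a signal of 66.5 with DMSO and 94.4 with GW4064, a log2 difference of 0.44. This was the dimmest replication gene, with a copy SD of 0.16 at its signal. Orc6, the smallest subunit of that complex, had signals of 4927 and 6144 and a difference of 0.25. The loading factor Cdc6 was read by 2 probes that disagreed in size, with 0.28 (316 and 402) and 0.011 (162 and 171). Cdt1, the loading factor held in check by geminin, had 12084 and 13535, a difference of 0.098. The brighter Cdc6 probe thus lay close to Orc6 and the dimmer one near 0.

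The subunits of the helicase ring differed among themselves. Over Mcm2 to Mcm7 the median was 0.16, with 5 of the 6 higher (Mcm2, Mcm5 and Mcm7 after spike-in centring), and the subunits spanned 0.35 on the log2 scale. Mcm2 had the largest value, 0.29, with signals of 2039.7 and 2615. Mcm7 followed with 0.22 (9271 and 11316), then Mcm5 with 0.18 (9709.5 and 11476) and Mcm3 with 0.15 (15021 and 17469.8). The difference of Mcm6 was 0.063, from 36627 and 40047, within its copy SD of 0.069. Mcm4 lay at 11323 with DMSO and 11365 with GW4064, which was a difference of -0.060 once the arrays were scaled. The ring holds 1 copy of each of these 6 proteins, and the differences of their transcripts were unequal.

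Of the 6 genes of origin firing, 5 were higher with GW4064, with a median of 0.21, and with spike-in centring 4 were higher with a median of 0.041. Cdc45, which joins the Mcm ring to GINS, had signals of 166 and 204, a difference of 0.23. Mcm10, a firing factor that is no part of the ring, had 2436 and 2937, a difference of 0.20. The 4 GINS subunits form 1 complex and spanned 0.36. Gins2 had 0.29 (1490.1 and 1902), Gins1 had 0.23 (1754 and 2146), Gins3 had 0.062 (9929 and 10846) and Gins4 had -0.069 (2762 and 2754). Around the spots of Cdc45, Gins2 and Mcm10, 2 or more other spots within 300 µm differed 8-fold or more between the arrays. Such places are called damaged areas here. The name rests on that count alone, which includes dim spots, and damage itself was not shown. Without Cdc45, Gins2 and Mcm10, the genes Gins1, Gins3 and Gins4 remained. Their median lay 0.056 above that of all genes, against 0.21 with all 6.

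All 6 polymerase and primase genes were higher with GW4064, with a median of 0.096, whereas with spike-in centring only Pole and Pola2 were higher and the median was -0.078. Pole, the catalytic subunit of the leading strand polymerase epsilon, had 0.23 from signals of 2618 and 3223. Its second probe was at background with DMSO and with GW4064 (10.3 and 3.41), and when dim probes were averaged in, the difference of Pole became -0.71. Pold1, the catalytic subunit of the lagging strand polymerase delta, had 0.093 (5951 and 6645). The subunits of the polymerase alpha and primase complex, which lays down the first stretch of each new strand, were close to each other apart from Pola2. Pola1, its catalytic polymerase, had 0.089 (950.5 and 1058). Prim1 and Prim2, the primase subunits, had 0.098 (3134 and 3511) and 0.080 (2024 and 2239). Pola2, the regulatory subunit, had 0.22 from dimmer signals of 147 and 180.

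The sliding clamp and its loader were divided, with 4 of 6 genes higher and a median of 0.14 (2 of 6 and -0.035 with spike-in centring). Pcna, the clamp that tethers polymerases to DNA, was the brightest replication spot, at 77466 with DMSO and 77522 with GW4064, and no spot of either array was saturated. Its scaled difference was -0.065, and -0.30 after a normexp background correction. Rfc1, the large subunit of the loader, had -0.095 (5915 and 5794), the lowest value in the scaling to the 75th percentile, but only -0.0075 once the median difference of -0.088 around its spot was subtracted. The small subunits were higher in the scaling to the 75th percentile, and with spike-in centring this held for Rfc4 and Rfc2 but not for Rfc3 and Rfc5. Rfc2 had 0.26 (3416 and 4283), Rfc3 had 0.14 (645 and 744) and Rfc5, in a damaged area, had 0.14 (8853 and 10184). The 2 probes of Rfc4 gave 0.36 (562 and 756) and 0.17 (3262 and 3833), a mean of 0.26.

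The subunits of the single-strand binding protein RPA, which coats unwound DNA, were the most uniform group. Their differences were 0.13 for Rpa1 (15622 and 17927), 0.13 for Rpa2 (967 and 1106) and 0.15 for Rpa3 (3709 and 4301), a span of 0.020, and all 3 turned negative with spike-in centring. The spot of Rpa1 lay in a damaged area, with 4 such spots around it. In Okazaki fragment maturation the 2 genes differed from each other. Lig1, the ligase that seals the nicks between fragments, had a signal of 7813 with DMSO and 12034 with GW4064, a difference of 0.56 (1.47-fold) at percentile 95.3 of all genes. Fen1, the flap nuclease that acts just before it, had 12759 and 14250, a difference of 0.094 that became -0.080 with spike-in centring.

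Deoxynucleotide supply held the largest single value. Tyms, thymidylate synthase, had a signal of 72.0 with DMSO and 141 with GW4064, a log2 difference of 0.90 (1.87-fold) at percentile 97.6, read at 1 dim spot with 1 other 8-fold spot within 300 µm. Tk1, the thymidine kinase of the salvage route to the same nucleotide, had 3463 and 4948, a difference of 0.45 (1.37-fold). Both enzymes of thymidylate were thus higher, and they remained so in every setting, between 0.61 and 0.97 for Tyms and between 0.28 and 0.47 for Tk1. The subunits of ribonucleotide reductase, which makes deoxynucleotides from ribonucleotides, showed less. Rrm2, its S-phase subunit, had 0.17 (9841 and 11566), and -0.0063 with spike-in centring. Rrm1, the large subunit, had 0.013 (4595 and 4851), within its copy SD of 0.072.

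Among the regulators that start S phase, the E2F activators lay near 0 and cyclin E1 did not. E2f1 and E2f2, activating members of the E2F family, had differences of 0.028 (4455 and 4754) and 0.0054 (1919 and 2016), both within the copy SD. Ccne1, cyclin E1, was read by 2 probes with 0.33 (3369 and 4437) and 0.13 (159 and 182), a mean of 0.23. The median of these 3 genes was 0.028, and it lay 0.021 above the median of all genes, and -0.0071 from it after quantile normalization. Of the genes that rebuild chromatin behind the fork, all 3 were higher (2 with spike-in centring). Uhrf1, which binds hemimethylated DNA and directs Dnmt1 to it, had 0.24 (5089 and 6274) and 0.14 (75.6 and 87.3) on its 2 probes. Chaf1a, the large subunit of the histone chaperone CAF-1, had 0.18 (1828 and 2163). Its partner Chaf1b had 0.19 (4820 and 5773) and 0.061 (9257 and 10104).

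All 5 genes with 2 measured probes had the same sign on both, in the scaling to the 75th percentile. With spike-in centring the lower probe turned negative for each of them, and the mean stayed positive for Rfc4, Ccne1 and Uhrf1 but not for Cdc6 and Chaf1b.

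The direction depended on which signal was held equal between the arrays. Median centring, spike-in centring and the authors' log2 table shift every gene by nearly the same amount. The distance from the median of all genes therefore could hardly move under them. Before any scaling, 46 of the 48 measured replication probes were brighter on the GW4064 array, with Gins4 and Rfc1 as the exceptions. That array was also brighter as a whole, with a 75th percentile of 1265 against 1209 with DMSO (log2 ratio 0.066). The same count over all probes was not made, so 46 of 48 is no trait of the replication genes by itself. Centring on 256 spots of the spike-in control probes lowered every difference by 0.17, and how much control RNA each labelling received is not given in the sources used here. The median of the replication genes then was -0.026 and that of all genes was -0.17, with 44.2% of the replication genes and 19.6% of all genes higher. Over 13 settings the median of the replication genes lay above that of all genes by 0.13 to 0.20. The distance was 0.13 after quantile normalization, 0.14 after loess, 0.13 after normexp and 0.16 after subtracting local medians. Above the median of all genes in every setting that measured them were 34 genes, and Mcm4, Pcna, Gins4 and Rfc1 were below it in every setting.

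**Figure D4:**
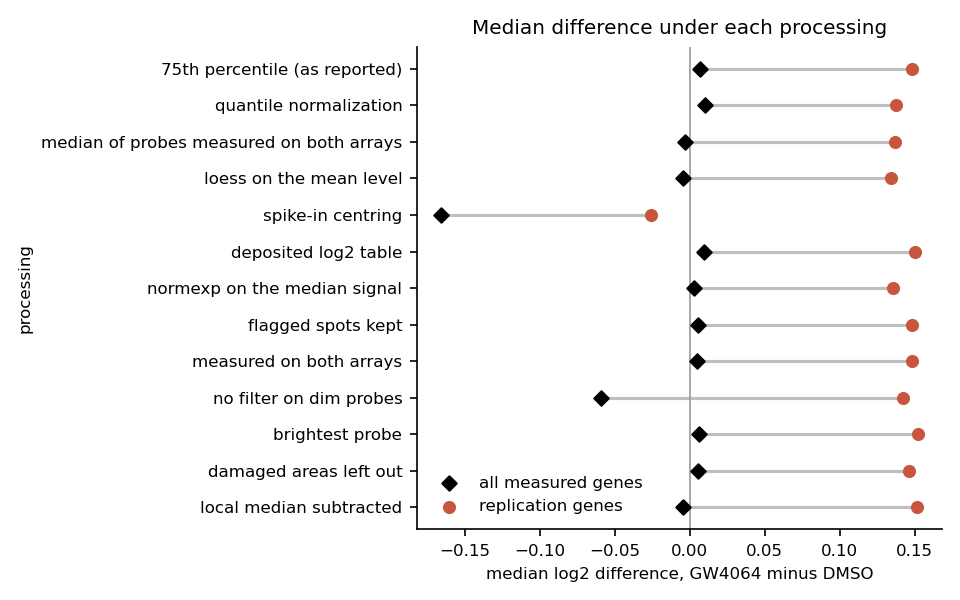
Median log2 difference (GW4064 minus DMSO) of the replication genes (circles) and of all measured genes (diamonds) under each way of processing the arrays. The circle lies to the right of the diamond in each of the 13 settings, and with spike-in centring both lie below 0, at -0.026 and -0.17. Median centring, spike-in centring and the deposited log2 table shift circle and diamond nearly alike.

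Position on the slide was compared with the result gene by gene. Areas counted as damaged covered 16.5% of the spots and held 5 of the 43 replication genes, Cdc45, Gins2, Mcm10, Rfc5 and Rpa1. Without these areas 34 of 38 genes were higher and the median was 0.15, in the scaling to the 75th percentile. The median difference of the spots within 500 µm of a replication probe lay between -0.088 and 0.14, with a median of 0.00091, and subtracting it left 39 genes higher and a median of 0.15.

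Genes of replication outside the 44 were set beside them in 5 further lists, together with a list of mitosis genes. Of the genes named from these lists, the only measured spots of Cdc7, Dbf4, Dctpp1, Cdk2, Myb, Btg2 and Cdc25c lay in damaged areas, as did 1 of the 2 probes of Orc4, Dna2, Slbp and Mki67. Of 39 other licensing and fork genes 32 were higher, with a median of 0.13 (-0.046 with spike-in centring). Gmnn, geminin, the inhibitor of Cdt1, had 0.17 (1193 and 1402). Dbf4, the activating subunit of the Cdc7 kinase, had 0.091 (300.2 and 335). Cdc7 itself had 0.57 from signals near background (18.9 and 29.3), in a damaged area, with its other probe at background. Fancd2, of the pathway that repairs DNA crosslinks at forks, had 0.50 (98.8 and 146). The lowest were Dna2, a nuclease and helicase of Okazaki fragments, with -0.52 and -0.30 on its 2 probes, and Orc4, whose probes disagreed with -0.60 and 0.25. The Orc4 probe at -0.60 and the Dna2 probe at -0.30 lay in damaged areas, so that without them Orc4 was at 0.25 and Dna2 at -0.52.

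Nucleotide supply and salvage outside the 44 gave 14 of 17 genes higher and a median of 0.15 (-0.028 with spike-in centring). Dctpp1, which removes surplus dCTP, had 0.49 (8497 and 12492), and Shmt2, a mitochondrial enzyme of folate metabolism, had 0.36 (1844 and 2471). Samhd1, which breaks down deoxynucleotides in macrophages, lay at the other end with -0.40 and -0.33 on its probes (geometric means of 15791 and 12842). The nucleoside transporter Slc29a1 had -0.21 (9099.5 and 8210.3).

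Among S-phase chromatin genes 13 of 16 were higher, with a median of 0.11 (-0.066 with spike-in centring). Cdca7, which acts with a chromatin remodeller, had 0.39 (1574 and 2156), and Esco2, which acetylates cohesin in S phase, had 0.26 (103 and 129). Dnmt1, the maintenance DNA methyltransferase, had 0.15 (1297 and 1504). The lowest were Slbp, which binds histone transcripts, with -0.068, and Ssrp1, a subunit of the histone chaperone FACT, with -0.22 and 0.13 on its 2 probes.

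The cyclins, kinases and Rb genes that control entry into S phase were evenly divided, with 11 of 22 higher and a median of 0.014 (-0.16 with spike-in centring). Ccnd1, cyclin D1, had 0.18 (21498 and 25539.7), Ccnd2 had -0.046 (221 and 224) and Ccnd3 had -0.40 and -0.22 on its 2 probes. Their kinase partners Cdk4 and Cdk6 had 0.20, as the mean of 3 probes between 0.018 and 0.37, and 0.34 (165 and 218). Cdk2, the partner of cyclin E, had 0.17 (610.0 and 719), while Ccna2, the cyclin A that serves it in S phase, had -0.020 (3026 and 3124). Rb1 had -0.14 (2765 and 2626) and Myc had -0.0027 (3198 and 3340.3). Myb, a transcription factor of dividing progenitors, was the only gene of these lists beyond 2-fold, with 1.69 (34.8 and 118), and its single spot lay in a damaged area.

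Inhibitors of the cycle were also mostly higher in the scaling to the 75th percentile. Of 18 inhibitors and cell cycle exit genes 14 were higher, with a median of 0.12 (7 of 18 and -0.054 with spike-in centring). Cdkn1a, an inhibitor induced by p53, had 0.14 and 0.55 on its 2 probes, and Mdm2, the ligase that limits p53, had 0.40 (17110.1 and 23683). Cdkn2a had 0.47 from dim signals of 53.5 and 77.8. Cdkn1b had -0.15 (1578 and 1489), and Btg2, an antiproliferative factor, had -0.39 (1669.6 and 1337).

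Of the mitosis genes 33 of 38 were higher, with a median of 0.13 (12 of 38 and -0.046 with spike-in centring). Top2a had 0.22 (1501 and 1834), Ccnb1 had a mean of 0.16 over 3 probes and Mki67, the proliferation marker, had 0.028 and 0.24 on its 2 probes, of which the second lay in a damaged area with 8 such spots around it. Cdk1, the kinase of mitotic entry, had 0.32 on the 1 probe well above background on both arrays (1323 and 1725). Cdc25c, its activating phosphatase, had 0.30 (78.8 and 102), and Cenpa, the centromeric histone, had 0.25 (1359 and 1696). The lowest were the kinetochore gene Ndc80 with -0.14 and the kinesin Kif2c with -0.054. These 6 lists were not tested against the replication genes, and with 1 array each no difference between lists can be called.

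**Figure D5:**
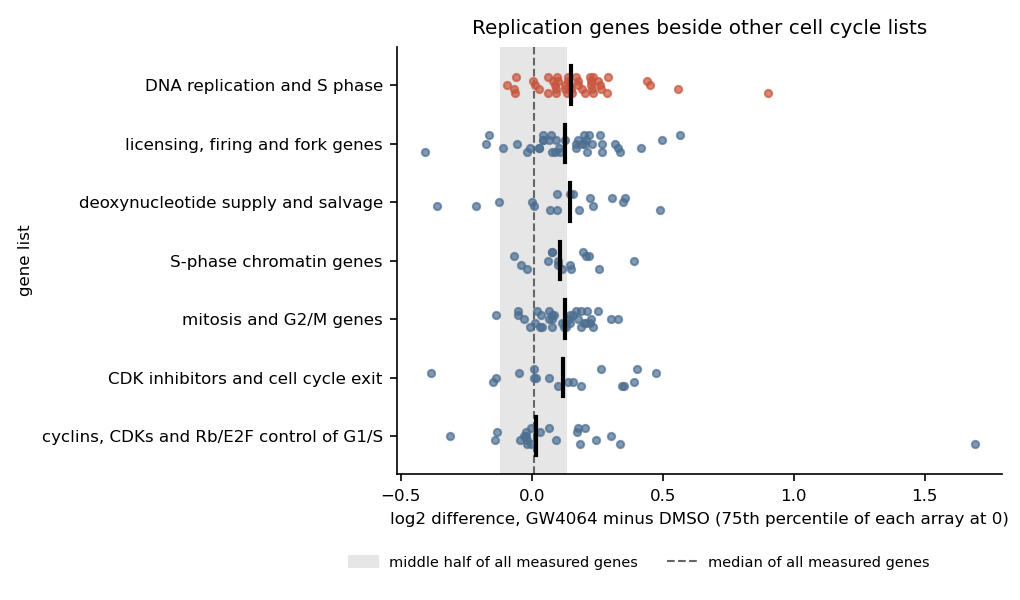
Log2 difference of each measured gene (points; GW4064 minus DMSO, with the 75th percentile of each array at 0) in the replication list and 6 other cell cycle lists, with a thick bar at the median of each list, a dashed line at the median of all measured genes and a band from their 25th to 75th percentile. The medians lie between 0.11 and 0.15, apart from 0.014 for cyclins, CDKs and Rb/E2F control, and all 7 turn negative with spike-in centring. The single point near 1.7 is Myb.

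The RNA came from whole cultures, so that a change in the share of cells in S phase and a change in transcript per cell cannot be told apart. Of 13 macrophage markers 12 were measured (Cd68 had no matched probe), 6 higher and 6 lower, with a median of 0.00030 and a summed signal of 283597 with DMSO and 268182 with GW4064. All 12 markers of granulocyte-monocyte progenitors, which divide in bone marrow cultures, were measured, 6 higher and 6 lower, with summed signals of 56556 and 72518. Calr alone made up 51637 and 67934 of these sums, and the other 11 markers summed to 4919 and 4583. Among them Mpo (-0.94), Kit (-0.74), Ctsg (-0.65), Elane (-0.34) and Spi1 (-0.019) were lower with GW4064. So was Ms4a3 (-0.48), which was not well above background with GW4064. Cd34 (0.0075), Gfi1 (0.34), Myb (1.69), Flt3 (at least 2.31) and Prtn3 (at least 0.41) were higher, the last 3 at spots in damaged areas. The Cd34 value is the mean of 0.22 on a bright probe (1936 and 2362) and -0.21 on a probe near background. Neutrophil markers had a median of -0.59 (6 of 8 lower, 12064 and 7648 summed) and stromal markers one of -0.58 (11 of 15 lower, 44861 and 38478 summed), with Ly6g and Lum not measured. Without Fn1, the brightest stromal marker, the stromal sums were 19542 and 11218. Erythroid and lymphocyte markers each had 4 of 8 genes well above background, with Slc4a1 and Cd79a among those at background. Their medians were -0.83 (4 of 4 lower) and -0.72 (3 of 4 lower). Of the erythroid genes only Epor was well above background on both arrays. Among the lymphocyte genes, Ms4a1 was well above background with DMSO alone, as was 1 of the 2 probes of Klrb1c. The other Klrb1c probe had -0.53, and Nkg7 (-0.13) and Cd3e (0.18) lay nearer to 0. The summed signals were 145 and 56.2 for erythroid markers, and 3531 and 3341 for lymphocyte markers, or 334 and 276 without Nkg7. Of 8 dendritic cell markers 5 were measured, 3 lower and 2 higher, with summed signals of 223396 and 196625, or 36803 and 37498 without Itgax. Siglech alone made up 36736 and 37360 of the sums without Itgax. Of the other markers, the only spots of Klf1, Ltf, Col1a1, Lgmn and Itgax, all lower, also lay in damaged areas. The same held for 1 probe each of Adgre1, Csf1r and Klrb1c, which were lower. It also held for 1 probe each of Vcam1 and Zbtb46, which were higher. The part of these cell types in the differences of the replication genes was not tested.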

How the data were processed

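The authors deposited the scanner output of both arrays, in which Feature Extraction 10.7.1.1 gives the intensity of each spot after background subtraction and detrending within the array, and a log2 table. GW4064 minus DMSO in the deposited log2 table equalled the scaled intensity difference within 0.01 for 100% of the probes, apart from a constant of 0.0022. Its column medians were 0.035 and -0.051, and the baseline of its probe centring is unknown. The methods name GeneSpring, without the normalization. Here the log2 intensity minus the 75th percentile of each array was used. Non-uniform and outlier spots were left out, spots of 1 probe were averaged, and a gene was the mean of its probes that rose well above background on 1 array or both (57.4% of probes with DMSO and 58.5% with GW4064 did). Accessions were named through RefSeq (GRCm38.p6), which matched 26581 probes, and no coordinates are given because the array design used another build. No test was made, since the number of arrays limits the precision, and sizes were compared with thresholds of 2-fold, 1.5-fold and a log2 difference of 0.32.

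Alternatives were quantile, median, loess (span 0.3) and spike-in scaling, the deposited table, normexp (offset 50) with quantile scaling, other filters on dim or marked spots, the brightest probe and leaving out damaged areas. Subtracting a local median was added after seeing the data. The members and lists were chosen with earlier results of these data known. Named genes were every member, the 2 highest and 2 lowest of each other list measured on both arrays, 2-fold changes and a set of cell cycle genes, of which 1 is not reported here. Calculations were tested on simulated arrays with planted changes larger than 2-fold, which does not probe differences as small as those here or the choice of scaling. limma 3.58.1 ran in R 4.3.3. In Python 3.11.15, matplotlib 3.10.9, statsmodels 0.14.6, scipy 1.17.1, pandas 2.3.3 and numpy 2.4.6 were used.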

Additional observations from a re-analysis of the deposited data

How the results depend on the processing

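Of 216 medians recomputed under alternatives, nearly all as the distance of a list or role from the median of all genes, 211 moved by less than the copy SD of 0.076 and kept their sign. This is a weak criterion. Median centring, spike-in centring and the authors' log2 table shift every gene nearly alike, so these distances could hardly move under them. The copy SD is that of single probes and exceeds some of the distances, such as 0.021 and 0.0075. Without subtracting the median of all genes, spike-in centring lowered every list by 0.17, the median of the replication genes was -0.026 and 19 of them were higher. After quantile normalization the median of Ccne1, E2f1 and E2f2 minus that of all genes was -0.0071 (0.021 before). After normexp the median of deoxynucleotide supply minus that of all genes was 0.188 (0.30 before). Without damaged areas this value was 0.056 for origin firing, of which 3 genes were left, and -0.0082 for cyclins, CDKs and Rb/E2F control (0.0075 before). Apart from the genes left out with the damaged areas, the cause was not tested. No replication gene was 2-fold higher in any setting, and in the scaling to the 75th percentile 1 passed 1.5-fold and 4 passed a log2 difference of 0.32 (2 with spike-in centring and 5 with the brightest probe). Of 511 single values of replication genes, each taken as the distance from the median of all genes, 19 moved by more than the copy SD. Without that subtraction, spike-in centring alone moved every replication gene by 0.17. No paired analysis was possible because there was only 1 array for each condition. Naming probes by the scanner files' gene name column, and the search for E2F motifs with either word, were not run. Differences below the copy SD, most of all for signals under 100, are beyond what these arrays resolve.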
